A study of Mus musculus with 16 samples.

Results

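Integrins are surface receptors made of an α and a β chain, which join the cytoskeleton to matrix proteins and to counter-receptors on other cells. The β2 chain Itgb2 pairs with Itgam (CD11b) to form complement receptor CR3 and with Itgal (CD11a) to form LFA-1. Both receptors serve leukocyte adhesion, and CR3 also serves uptake of opsonized material. The β1 chain Itgb1 pairs with Itga4, Itga5, Itga6 and Itgav for binding to VCAM-1 and matrix proteins such as fibronectin and laminin, and Itgav also pairs with the β5 chain Itgb5 in a receptor for vitronectin.

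The 9 chains described here are Itgam, Itgb2, Itgal, Itga4, Itga5, Itga6, Itgav, Itgb1 and Itgb5, out of 20267 genes in the deposited gene table. They were chosen by name. RNA was sequenced from microglia of 16 mice on a C57BL/6J background, 4 in each group, all 11 months old and all with loxP sites on both copies of Mapk14, the gene of p38α. WT p38+/+ and AD p38+/+ mice carried no Cre, whereas WT p38KO and AD p38KO mice carried Cx3cr1-creERT2+/-, a knock-in that replaces 1 copy of Cx3cr1, so the loss of p38α and of that Cx3cr1 copy cannot be told apart. AD mice carried the APPswe/PS1dE9+/- transgene of amyloid deposition, and all mice received tamoxifen diet at 400 ppm for 4 weeks from 5 months of age. Mice are numbered 1 to 4 within a group. Mouse 1 of each group and mouse 2 of WT p38KO were female, and all others were male. About 10000 cells per mouse were sorted as Cd11b+/P2ry12+. As CD11b is the product of Itgam, the presence of Itgam in these libraries was set by the sort and is no finding. Its level, ratios and group differences below hold only for cells that passed this gate.

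The values are counts per 1000000 assigned reads (CPM), and 1 CPM corresponded to about 12.3 to 16.4 reads. Mapk14-202, the transcript that best showed the deletion, ran from 47.1 to 82.6 CPM among WT p38+/+ mice and from 58.5 to 71.0 CPM among AD p38+/+ mice. Its highest value was 0.214 CPM among WT p38KO mice and 0.248 CPM among AD p38KO mice, so each library matched its p38 label. Mapk14-203 went the other way, at 130 to 160 CPM among WT p38KO and 135 to 154 CPM among AD p38KO mice. Its respective controls were at 74.5 to 98.7 and 61.3 to 82.7 CPM. Summed over the gene, Mapk14 ran from 138 to 169 CPM among WT p38KO mice and from 142 to 166 CPM among AD p38KO mice, against 162 to 210.2 and 152 to 173 CPM in the respective controls. All 10 microglia markers were above 0 in every library, with a sum of 54730 to 67219 CPM. The sum ran from 62762 to 67219 CPM among WT p38+/+ mice and from 56204 to 58467 CPM among AD p38KO mice, and the list includes Cx3cr1, at 2978 to 3609 CPM in the AD p38KO group against 7842 to 9296 CPM in the WT p38+/+ group. None of the 7 granulocyte markers was in the table, and 3 of 11 lymphocyte and NK cell markers were, with a sum of at most 1.20 CPM. The sums were at most 25.2 CPM for monocytes (4 of 6 markers in the table), 23.1 CPM for neurons (8 of 8), 48.8 CPM for endothelial and mural cells (9 of 10), 56.6 CPM for platelets (6 of 6) and 135 CPM for border-associated macrophages (7 of 7). Astrocyte markers (7 of 7) summed to 162 to 285 CPM, mostly Slc1a3, and oligodendrocyte markers (9 of 10) to 182 to 272 CPM. The 4 AD p38KO libraries held the fewest genes above 0, at 15448 to 16816 against 16954 to 18011 in the other groups, and AD p38KO mice 1 and 4 lay farthest out on the principal components of all genes. The part of these differences in the values below was not tested, apart from leaving those 2 mice out.

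The main alternative forms of the members' transcripts differ at a few coding junctions, which are printed here because the shares of transcripts given below depend on reads that cross them. Sequences are from GENCODE M21 transcripts (GRCm38), 5′ to 3′ on the plus strand. Itgam (chr7:128062640-128118491) has a pair of major transcripts that use acceptors 3 bases apart, at 128101637 in Itgam-203 and at 128101634 in Itgam-201, after the exon that ends at 128101556. The capitals mark the 3 bases that Itgam-201 has in addition at this junction.

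Itgam-203: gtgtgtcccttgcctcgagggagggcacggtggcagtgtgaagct

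Itgam-201: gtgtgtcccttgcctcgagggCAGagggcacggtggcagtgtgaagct

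A minor form, Itgam-205, does not splice at the end of the exon chr7:128116736-128116846 but continues to 128117090, whereas Itgam-203 joins that exon to the last exon at 128117306. After the shared exon, Itgam-205 has 36 more codons before its stop codon and Itgam-203 has 23, so the annotated cytoplasmic ends differ. The first 14 codons past the shared exon are printed for each, short of both stop codons, and capitals mark the stretch read from the intron.

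Itgam-203, junction of the last exons: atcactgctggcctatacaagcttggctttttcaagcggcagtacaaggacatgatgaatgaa

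Itgam-205, start of the read-through: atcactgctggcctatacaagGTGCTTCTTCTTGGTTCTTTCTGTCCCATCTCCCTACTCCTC

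Itga6 (chr2:71745616-71858416) has a cassette exon of 130 bases, chr2:71853534-71853663, near the end of its coding part. Itga6-201 includes it and ends its coding part there, the form known as α6A, and Itga6-202 skips it, the form known as α6B. Capitals mark the exon up to and including the stop codon.

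Itga6-201: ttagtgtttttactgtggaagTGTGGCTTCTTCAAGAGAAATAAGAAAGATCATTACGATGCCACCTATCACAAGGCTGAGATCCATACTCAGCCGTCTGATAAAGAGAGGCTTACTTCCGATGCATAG

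Itga6-202: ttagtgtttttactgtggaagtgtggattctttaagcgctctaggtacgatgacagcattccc

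Itgb5 (chr16:33829665-33949338) uses a pair of donors 29 bases apart, at 33947881 in Itgb5-202 and at 33947852 in Itgb5-201, which changes the reading frame of the last coding exon. Capitals mark the 29 bases found in Itgb5-202 alone.

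Itgb5-202: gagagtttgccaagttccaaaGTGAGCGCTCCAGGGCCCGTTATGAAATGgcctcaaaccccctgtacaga

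Itgb5-201: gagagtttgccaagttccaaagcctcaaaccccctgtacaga

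The other members lie at chr10:77530252-77565708 (Itgb2), chr7:127296260-127335138 (Itgal), chr2:79255426-79333123 (Itga4), chr15:103344286-103366763 (Itga5, minus strand), chr2:83724397-83806916 (Itgav) and chr8:128685654-128733200 (Itgb1) in the same build.

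To place the chains in order, transcript values were divided by transcript length and summed over each gene. The sums include noncoding and partial transcripts, and short ones weigh more per read. Examples are Itgav-206 (688 bases, mean 13.3 CPM) and the noncoding Itga6-203 (2721 bases, mean 59.3 CPM). Levels of the full-length coding forms alone were not computed on this scale. Per kilobase, Itgb5 had the highest mean over the 16 libraries, at 683 CPM per kb ± 263 (SD, n = 16), followed by Itgam at 373 ± 68.6 and Itgb2 at 278 ± 28.4 CPM per kb. Itgb1 was at 139 ± 8.86, Itgav at 103 ± 11.3 and Itga6 at 83.0 ± 36.4 CPM per kb. Itga5 stood lower at 9.21 ± 2.79, and the leukocyte chains Itga4 and Itgal were at 0.475 ± 0.420 and 0.211 ± 0.260 CPM per kb. The ranges over libraries did not overlap between Itgb2 and Itgb1, between Itga6 and Itga5, or between Itga5 and Itga4, and they overlapped for the 5 other neighbouring pairs. Itgb5 was above Itgam in 14 of 16 libraries, the exceptions being those in which Itgb5 was lowest. Itgav and Itga6 were not in a fixed order, with Itgav higher in 10 of 16 libraries.

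**Figure D1:**
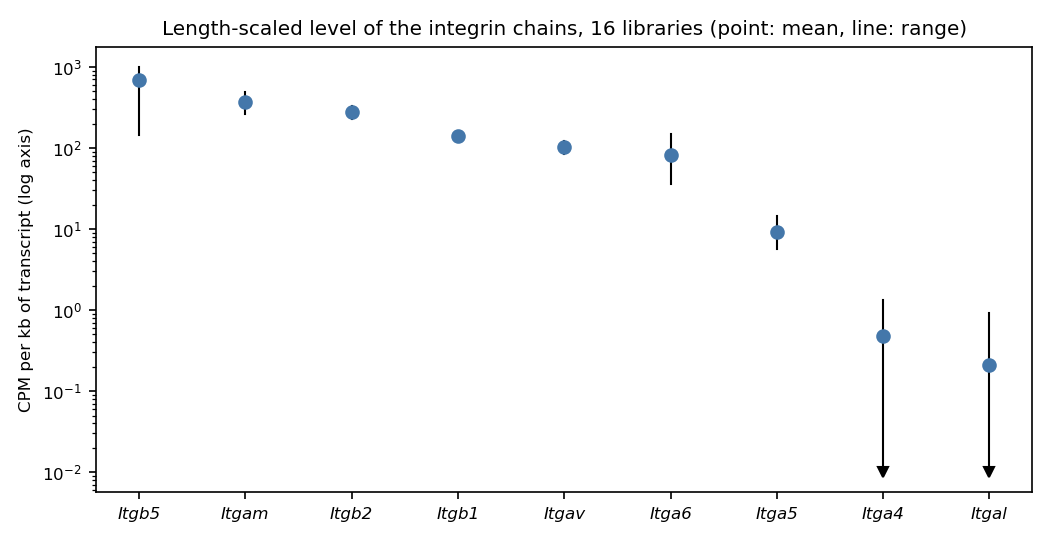
Level of the 9 integrin chains in CPM per kilobase of transcript (log axis), with the mean (point) and range (line) over 16 libraries, and arrowheads where the lowest library was at 0. Noncoding and partial transcripts are included. Itgb5, Itgam and Itgb2 lead, at means of 683, 373 and 278 CPM per kb, and Itga4 and Itgal stay below 1 on average.

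The chains that pair were compared on the same per-kilobase scale, as a description with no test. Noncoding and partial transcripts are again included, so these are not ratios of coding forms. Itgam to Itgb2 was 1.36 ± 0.301 (SD, n = 16), ranging from 0.866 to 1.95, whereas Itgal to Itgb2 was at most 0.00404. Against Itgb1, the ratio was 0.740 ± 0.0701 for Itgav, 0.597 ± 0.261 for Itga6, 0.0667 ± 0.0223 for Itga5 and 0.00343 ± 0.00298 for Itga4. Itgav to Itgb5 averaged 0.208 and reached 0.836 in the library with the least Itgb5. Among the β chains, Itgb2 exceeded Itgb1 in all 16 libraries, at a ratio of 2.00 ± 0.211.

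The comparisons asked whether the transgene (AD against WT) and the deletion (p38KO against p38+/+) changed the level of these chains. All 9 members passed the filter of 1 CPM in at least 4 libraries, though Itgal did so in 6 and Itga4 in 10 of 16 libraries, and none was called at an adjusted p under 0.05 in any of the 7 comparisons (limma on log2(CPM + 0.5), Benjamini-Hochberg over 13912 genes). The share of all genes called was 0.359% for AD p38+/+ against WT p38+/+, 0.323% for AD p38KO against WT p38KO, 0.0503% for AD p38KO against AD p38+/+ and 0.00719% for WT p38KO against WT p38+/+. It was 1.03% for the APP/PS1 main effect, 0.0791% for the p38 KO main effect and 0% for their interaction. The smallest adjusted p of any member was 0.158. At an unadjusted p under 0.05, 1 of 9 members passed in each comparison except the interaction, where 0 did. The background at that limit was 7.11% of genes for AD p38+/+ against WT p38+/+, 9.56% for AD p38KO against WT p38KO, 6.99% for AD p38KO against AD p38+/+ and 3.53% for WT p38KO against WT p38+/+. It was 7.28% of gene tests for the main effects and the interaction together. With 9 members, 1 member is close to these shares, so the count is no result about the chains. The members' median log2 fold change was 0.12 in AD p38+/+ against WT p38+/+ (all genes -0.01) and -0.22 in AD p38KO against WT p38KO (all genes -0.04). For the deletion it was -0.04 in AD mice (all genes -0.02) and 0.06 in WT mice (all genes 0.02).

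**Figure D2:**
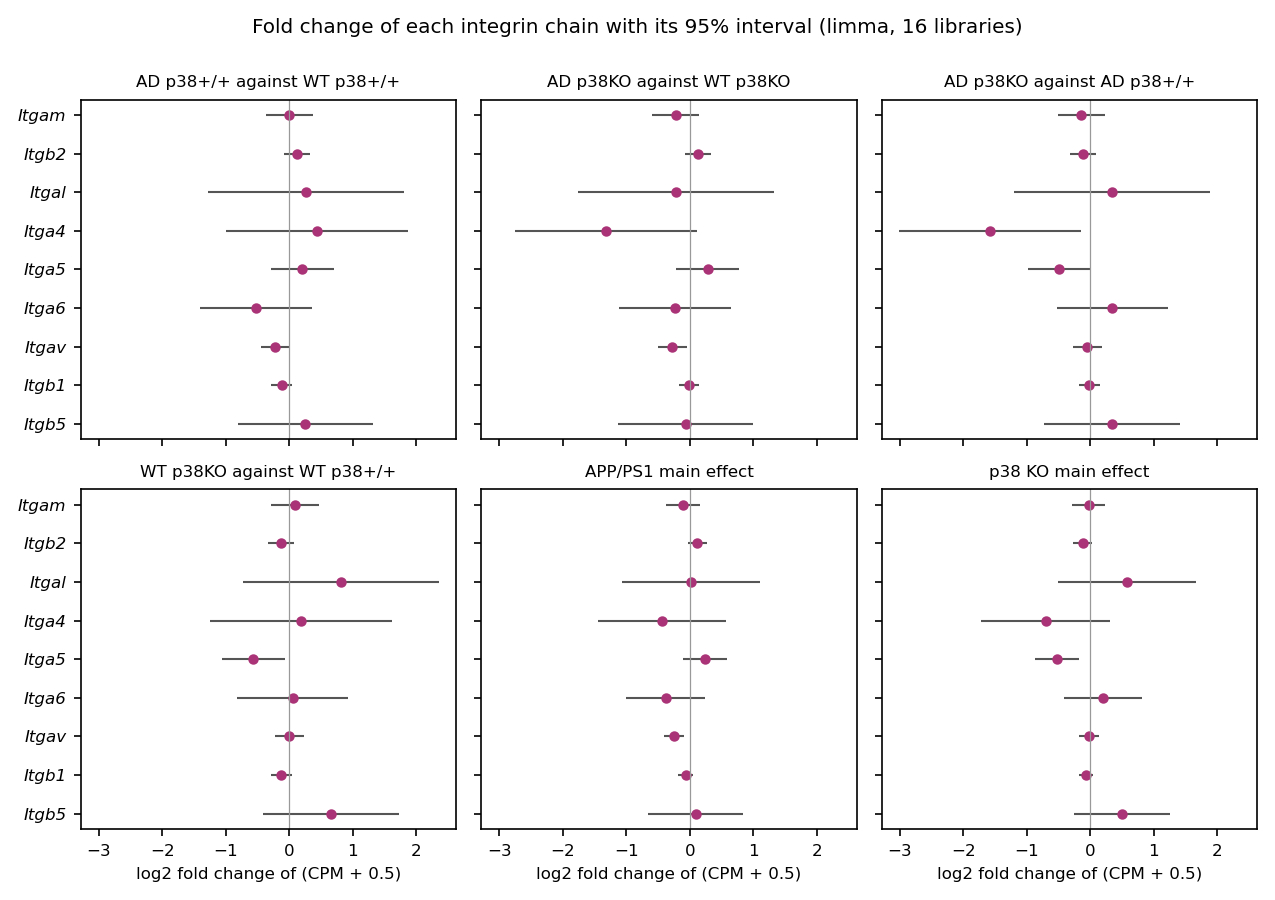
Log2 fold change on the log2(CPM + 0.5) scale of each chain (point) with its 95% interval (line) in the 4 pairwise comparisons and the 2 main effects. Intervals are narrow for Itgb1, Itgav and Itgb2 and span more than 1 log2 unit for Itgal, Itga4, Itga6 and Itgb5, and in each panel 1 interval lies off 0, that of Itgav, Itga4 or Itga5.

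Itgam, the α chain of CR3, was at 1377, 2129, 1532 and 1902 CPM in mice 1 to 4 of WT p38+/+ and at 1888, 2075, 1443 and 1930.2 CPM in WT p38KO. Itgam in AD p38+/+ was at 1997, 1561, 2286 and 1209 CPM, and in AD p38KO at 1687, 1715, 1565 and 1297 CPM. All 4 groups overlapped, and the highest and the lowest library were both from AD p38+/+ mice. The log2 fold change was 0.00 in AD p38+/+ against WT p38+/+ (95% interval -0.37 to 0.38) and -0.14 in AD p38KO against AD p38+/+ (-0.51 to 0.24). In bulk samples such as these, fewer cells with a transcript and less of it per cell cannot be told apart.

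Itgb2, the β chain shared by the leukocyte integrins, was at 691, 844, 913 and 829.6 CPM in WT p38+/+ and at 727, 677, 808 and 788 CPM in WT p38KO. Itgb2 in AD p38+/+ was at 790.0, 983, 878 and 894 CPM, and in AD p38KO at 915, 776, 782 and 798 CPM. The groups overlapped again, within a highest-to-lowest ratio of 1.45 over all libraries against 1.89 for Itgam. Its log2 fold change was 0.12 for the APP/PS1 main effect (interval -0.02 to 0.27) and -0.12 for the p38 KO main effect (-0.26 to 0.03).

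Itgal, the α chain of LFA-1, was close to the limit of detection. Its values were 0.145, 0.609, 1.52 and 0 CPM in WT p38+/+, with 0, 4.84, 0.720 and 1.65 CPM in WT p38KO. In AD p38+/+ Itgal was at 0.401, 0.758, 2.11 and 0 CPM, and in AD p38KO at 3.31, 0.557, 1.40 and 0 CPM. Each group held 1 library at 0, and 5 of 16 libraries lay under 3 reads (0.183 to 0.245 CPM depending on depth). No difference was detectable at this depth, with a 95% interval of the p38 KO main effect from -0.51 to 1.67.

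Itga4, the α4 chain that binds VCAM-1 and fibronectin, was similarly sparse, at 5.51, 1.16, 0.0759 and 1.93 CPM in WT p38+/+, with 1.30, 3.78, 0.615 and 2.15 CPM in WT p38KO. Itga4 was at 2.54, 0.965, 2.11 and 3.55 CPM in AD p38+/+ and at 0, 2.71, 0.233 and 0 CPM in AD p38KO. The AD p38KO group held both libraries at 0, but its mouse 2 lay within the range of AD p38+/+. The log2 fold change of AD p38KO against AD p38+/+ was -1.58 (interval -3.02 to -0.15, adjusted p = 0.691 by limma), and with values this near 0 it depends on the constant added before the logarithm. AD p38KO libraries also had the fewest genes above 0, as given above, and the part of this in the value was not tested.

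Itga5, the α chain of the classical fibronectin receptor, was the member whose groups separated. It was at 32.6, 50.4, 34.5 and 41.0 CPM in WT p38+/+ and at 21.4, 22.6, 31.4 and 31.2 CPM in WT p38KO. Itga5 in AD p38+/+ was at 52.1, 44.7, 42.6 and 41.5 CPM, and in AD p38KO at 32.0, 57.0, 23.1 and 24.9 CPM. All 4 WT p38KO mice were below all 4 WT p38+/+ mice. The sexes were not balanced here, as mice 1 and 2 of WT p38KO but only mouse 1 of WT p38+/+ were female. Over all 30 alternatives, some with sex as a covariate, the log2 fold change of this comparison ran from -0.65 to -0.37, with 0 calls. The part of sex in the separation itself was not tested. Any such separation of 4 mice from 4 has the smallest two-sided p of an exact permutation test in this design, 0.0286, and it was the only one among 36 comparisons of members. In AD mice, 3 of 4 AD p38KO values were below the lowest AD p38+/+ value while mouse 2 had the highest value of all 16 libraries. The means were 39.6 ± 8.04 and 26.6 ± 5.37 CPM in WT p38+/+ and WT p38KO (SD, n = 4), and 45.2 ± 4.78 and 34.2 ± 15.6 CPM in AD p38+/+ and AD p38KO. The log2 fold change was -0.57 (SE 0.24) in WT mice and -0.53 (SE 0.17, interval -0.88 to -0.18) for the p38 KO main effect, which limma did not call at an adjusted p of 0.651. Without AD p38KO mouse 2, the mouse that ran against the difference, the adjusted p of the main effect by limma was 0.103. This was the lowest of 29 alternatives for this value. Itga5 was 1 of 9 members whose groups did not overlap in WT p38KO against WT p38+/+, where 2.72% of all genes did not. In the 3 other pairwise comparisons 0 of 9 members were without overlap, against 5.23% of genes for AD p38+/+ against WT p38+/+, 4.93% for AD p38KO against WT p38KO and 3.34% for AD p38KO against AD p38+/+.

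Itga6, the α chain of a laminin receptor, was at 133, 458, 417 and 353 CPM in WT p38+/+ and at 386, 412, 173 and 383 CPM in WT p38KO. Itga6 in AD p38+/+ was at 181, 189, 401 and 152 CPM, and in AD p38KO at 527, 194, 167 and 325 CPM. The libraries fell on both sides of an empty range, with 7 libraries at or below 194 CPM, 9 at or above 325 CPM and none between. Low and high libraries occurred in every group, 1 low of 4 in each WT group, 3 low of 4 in AD p38+/+ and 2 low of 4 in AD p38KO. No comparison was called, and the interval of the APP/PS1 main effect ran from -1.0 to 0.24.

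Itgav, the αv chain of the vitronectin receptors, was at 628, 576, 573 and 478 CPM in WT p38+/+ and at 521, 570.4, 619.8 and 539 CPM in WT p38KO. Itgav was at 411, 518, 538 and 459 CPM in AD p38+/+ and at 445, 439, 538 and 441 CPM in AD p38KO. The AD groups sat lower but overlapped with the WT groups through mouse 4 of WT p38+/+ and mouse 3 of each AD group. The group means were 564 ± 62.7 and 563 ± 43.3 CPM in WT p38+/+ and WT p38KO, and 481 ± 57.8 and 466 ± 48.2 CPM in AD p38+/+ and AD p38KO (SD, n = 4). The APP/PS1 main effect was -0.25 on the log2 scale (SE 0.08, interval -0.41 to -0.09, adjusted p = 0.158 by limma), the member value nearest to the threshold. Within genotype it was -0.23 in p38+/+ and -0.27 in p38KO mice, and the p38 KO main effect was -0.02 (interval -0.18 to 0.14).

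Itgb1, the common β1 chain, was the steadiest member, at 551, 514, 546 and 579 CPM in WT p38+/+, with 495, 499, 501 and 515 CPM in WT p38KO. Itgb1 was at 443, 528, 555 and 495 CPM in AD p38+/+ and at 496, 484, 522 and 496 CPM in AD p38KO. The WT groups overlapped by 1 library, as the highest WT p38KO value lay just above the lowest WT p38+/+ value. The log2 fold change was -0.12 in WT p38KO against WT p38+/+ (interval -0.29 to 0.04) and -0.01 in AD p38KO against AD p38+/+ (-0.18 to 0.15).

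Itgb5, the β5 chain, was at 452, 1939.9, 2482 and 2243 CPM in WT p38+/+ and at 1538, 2856, 2710.2 and 2534 CPM in WT p38KO. Itgb5 in AD p38+/+ was at 2636, 2917, 1855 and 684 CPM, and in AD p38KO at 3125, 2878, 2689 and 1044 CPM. The lowest library of a group was mouse 1 in both WT groups and mouse 4 in both AD groups. The widest gap between neighbouring values set 2 libraries apart, mouse 1 of WT p38+/+ and mouse 4 of AD p38+/+, and the highest library held 6.92 times as much as the lowest. With this spread, the interval of the p38 KO main effect ran from -0.25 to 1.25 and that of the APP/PS1 main effect from -0.66 to 0.85.

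**Figure D3:**
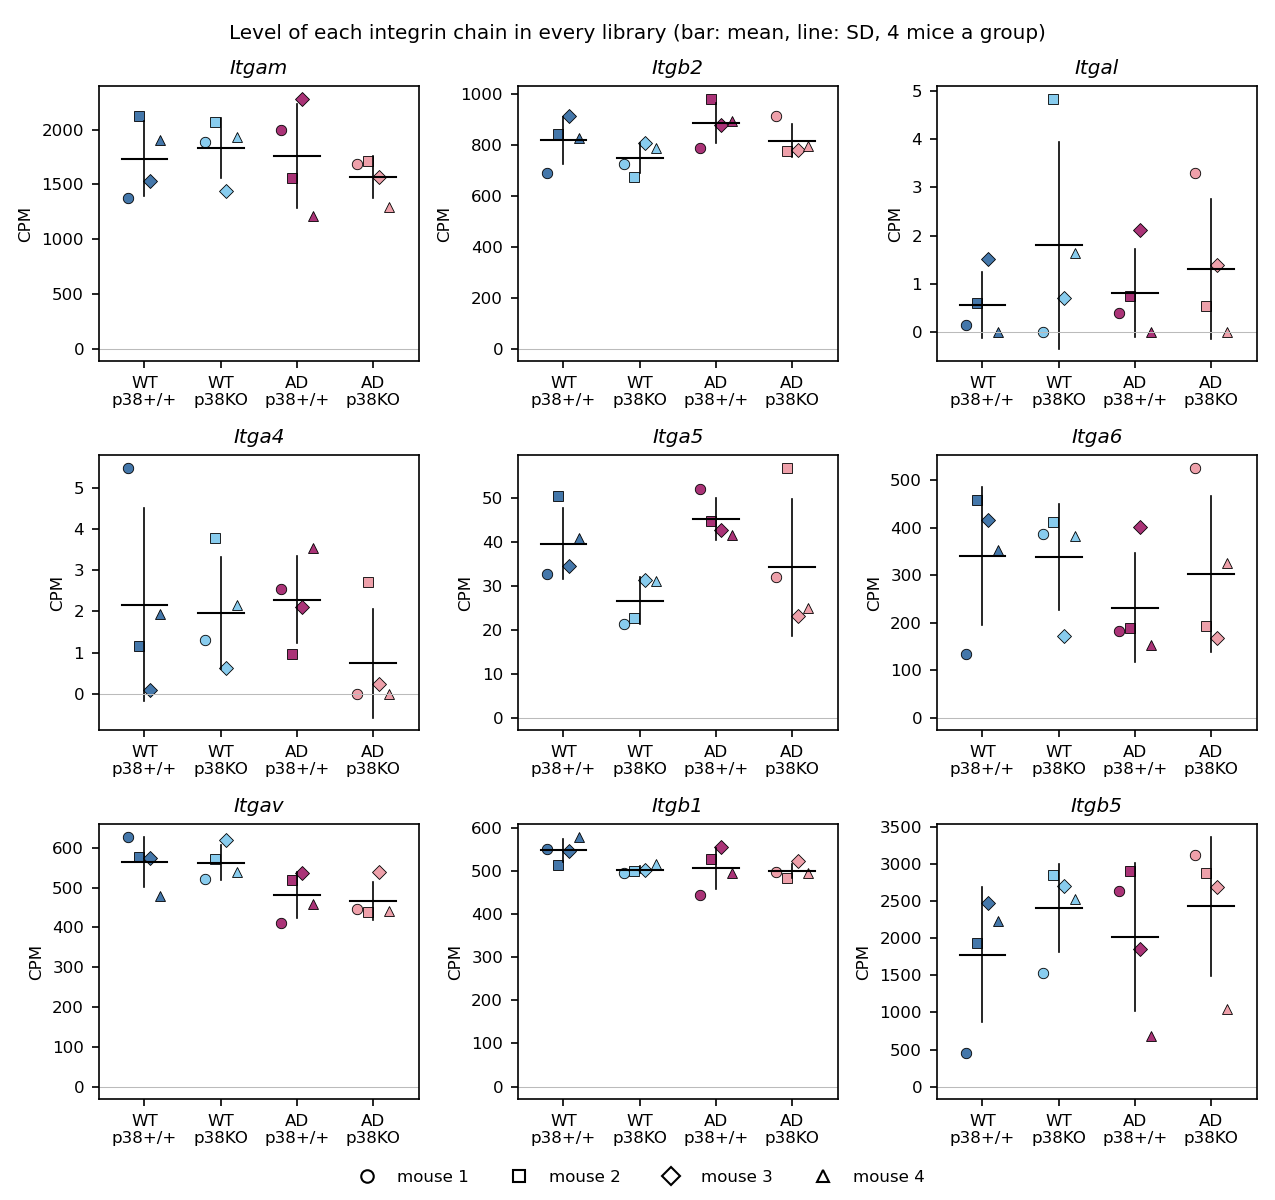
CPM of each integrin chain in every library, by group, with the mean (bar) and SD (line) of 4 mice and a symbol for each mouse number. Itgb1 stays between 443 and 579 CPM, Itga6 leaves the range from 194 to 325 CPM empty, and Itgb5 is lowest in mouse 1 of WT p38+/+, at 452 CPM.

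The spread between mice of a group thus set what could be seen for each chain. The within-group SD of log2(CPM + 0.5) was 0.08 for Itgb1, 0.13 for Itgb2, 0.15 for Itgav, 0.29 for Itgam, 0.36 for Itga5, 0.70 for Itga6 and 0.86 for Itgb5. Among the 1722 genes with a mean of at least 100 CPM the median was 0.17. In that distribution Itgb1 was at the 1.68 percentile, Itga6 at the 99.0 percentile and Itgb5 at the 99.4 percentile. For the sparse chains the SD was 1.08 for Itga4 and 1.16 for Itgal.

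The genes whose profile over the 16 libraries was nearest to a member were sought among the 8673 other genes of at least 10 CPM, as the smallest mean absolute difference of centred log2 values. For Itgb5 the nearest was Gm38317 on chromosome 3, with a mean difference of 0.07 log2 units, while Itgb5 itself deviated from its mean by 0.61. It was at 21.2, 90.1, 126 and 91.8 CPM in WT p38+/+ and at 132, 136, 97.4 and 39.9 CPM in AD p38+/+ mice, low in the same mice as Itgb5. Fbxo33 on chromosome 12, a substrate receptor of a ubiquitin ligase, followed at 0.11 log2 units and spanned 6.45 to 52.4 CPM. For Itga6 the nearest were Relt, a TNF receptor family member, at 0.34 and the tetraspanin Tspan18 at 0.38 log2 units, against a deviation of 0.62 for Itga6. For Itgam they were B430306N03Rik at 0.13 and the kinase gene Fam20b at 0.14 log2 units, against a deviation of 0.23. These values describe likeness over libraries that also differ in depth and group. The nearest genes were picked by this likeness, so being low in the same libraries as the member follows from the choice.

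**Figure D4:**
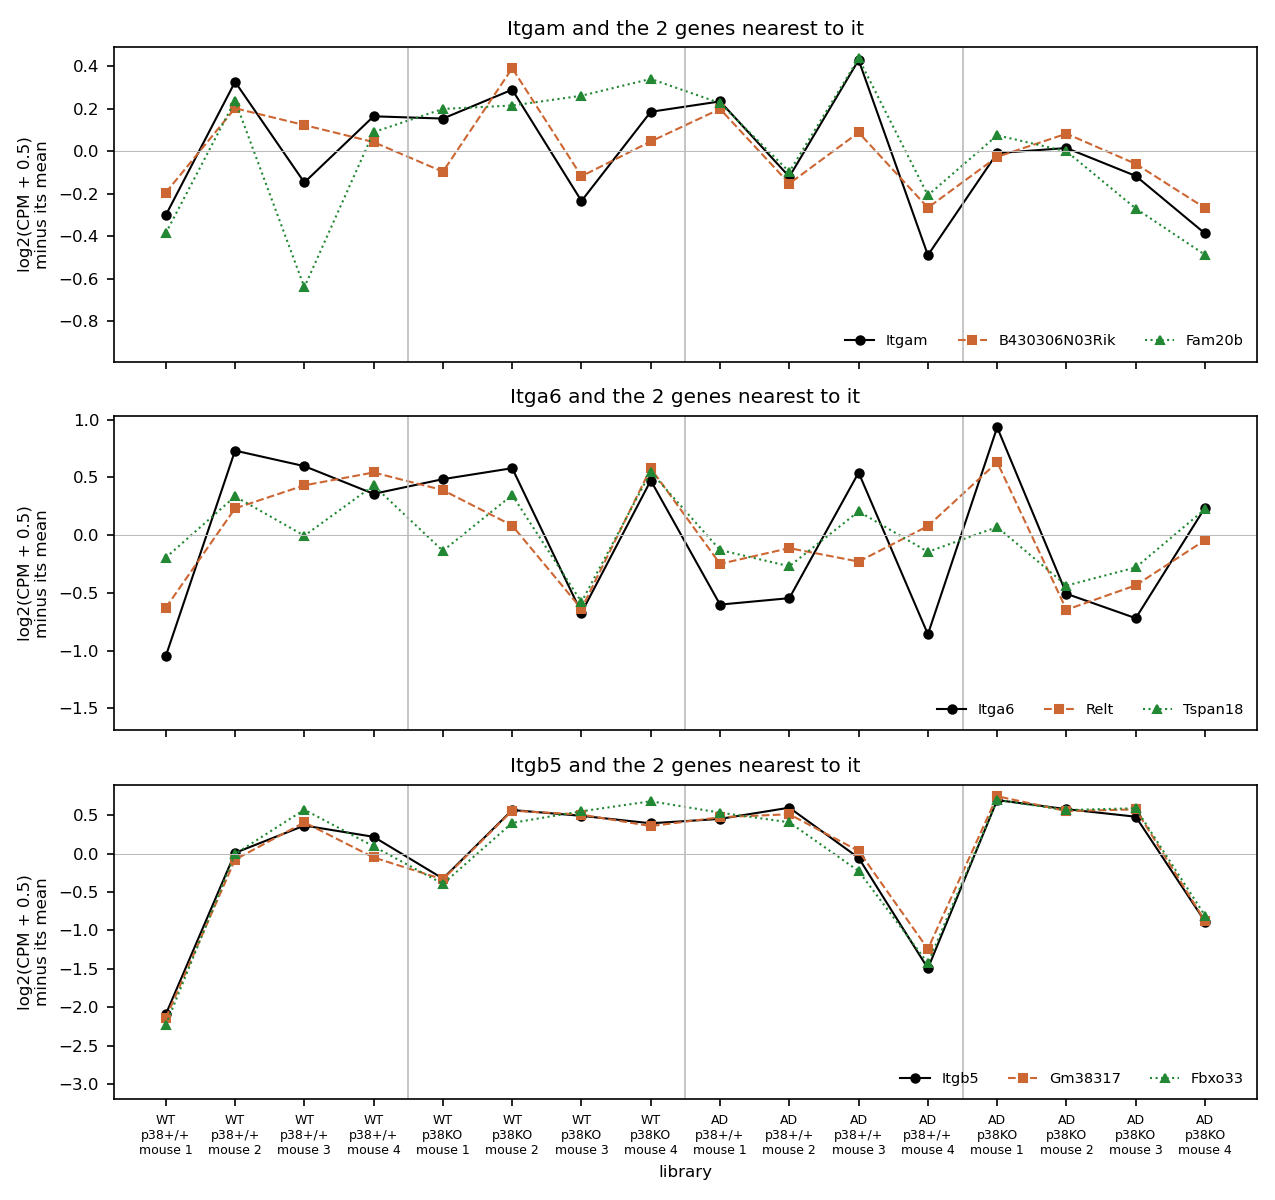
Centred log2(CPM + 0.5) of Itgam, Itga6 and Itgb5 (black circles) and of the 2 genes nearest to each, over the 16 libraries, with vertical lines between groups. Gm38317 and Fbxo33, picked for their likeness to Itgb5, follow it through its low libraries. These include mouse 1 of WT p38+/+ and mouse 4 of AD p38+/+, and the fits are looser for Itga6 and Itgam.

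At the level of transcripts, 28 transcripts of 8 members passed the filter, and those of Itgal did not. None was called at an adjusted p under 0.05 in any of the 7 comparisons (limma over 34322 transcripts), where 0.112% of all tests were. At an unadjusted p under 0.05, 18 of 196 tests passed, and 6.68% of all transcript tests did. The smallest adjusted p was 0.205. Itgb2-201, Itgb1-201 and Itga5-201 made up nearly all of their genes, with shares of the summed CPM of at least 99.0%, 97.3% and 96.9% in every library.

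Itgam was split between Itgam-203, at 56.1% ± 1.90 of the gene, and Itgam-201, at 41.5% ± 2.82 (SD, n = 16). They differ by the 3 bases shown above and at their annotated ends, chr7:128062669-128118490 for Itgam-203 and chr7:128062640-128118491 for Itgam-201. The reads were divided among overlapping transcripts by the authors' software, and only reads over that junction or at those ends tell these forms apart. Their shares therefore need not follow the use of the acceptors alone. Itgam-205, with the alternative end, was at 33.2, 61.4, 37.6 and 7.22 CPM in WT p38+/+ and at 18.6, 24.0, 13.9 and 8.75 CPM in WT p38KO. Itgam-205 in AD p38+/+ was at 47.2, 47.1, 67.6 and 39.6 CPM, and in AD p38KO at 11.2, 15.3, 14.4 and 18.8 CPM. Each AD p38KO library was below each AD p38+/+ library, 1 of 3 such cases among the 28 transcripts of members, while 3.89% of all transcripts did not overlap in that comparison. In WT mice 3 of 4 p38+/+ libraries were above all p38KO libraries while mouse 4 was below them. The log2 fold change was -1.72 (SE 0.46, interval -2.68 to -0.76) in AD mice and -1.27 (SE 0.32, interval -1.95 to -0.59) for the p38 KO main effect, with adjusted p of 0.349 and 0.209 by limma. As a share of Itgam, it was 2.90% ± 0.386 in AD p38+/+ and 0.981% ± 0.332 in AD p38KO, and 2.03% ± 1.12 in WT p38+/+ and 0.890% ± 0.304 in WT p38KO (SD, n = 4). The share of Itgam-201 was 37.5 to 41.0% in AD p38+/+ and 42.6 to 44.5% in AD p38KO. For both shares the AD groups did not overlap.

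Of 26 tested transcripts of members with at least 2 of them, the shares of 3 did not overlap in AD p38KO against AD p38+/+ and of 1 in WT p38KO against WT p38+/+, where 4.41% and 3.76% of all transcript shares did not. For the transgene, 0 did not overlap in AD p38+/+ against WT p38+/+ and 1 in AD p38KO against WT p38KO, against 3.02% and 3.21% of all transcript shares. The shares that separated with the deletion were Itgam-201, Itgam-205 and Itga6-207 in AD mice and Itgb5-201 in WT mice. With the transgene it was Itgav-206, at 1.55 to 2.30% of Itgav in WT p38KO and 2.61 to 3.25% in AD p38KO. The shares of a gene add up to the whole and are not independent of each other. In the WT p38+/+ group, mouse 4 decided whether Itgam-205 was called. Without it, the transcript was called in AD p38KO against AD p38+/+ (adjusted p = 0.0470, limma) and for the p38 KO main effect (adjusted p = 0.00303). As WT p38+/+ mouse 4 is in neither AD group, leaving it out did not change the fold change between the AD groups. The call there came from the spread estimate shared by all groups, and says nothing more about the AD mice. That mouse had Mapk14-202 at 47.1 CPM, the lowest of its group but far above all p38KO libraries.

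**Figure D5:**
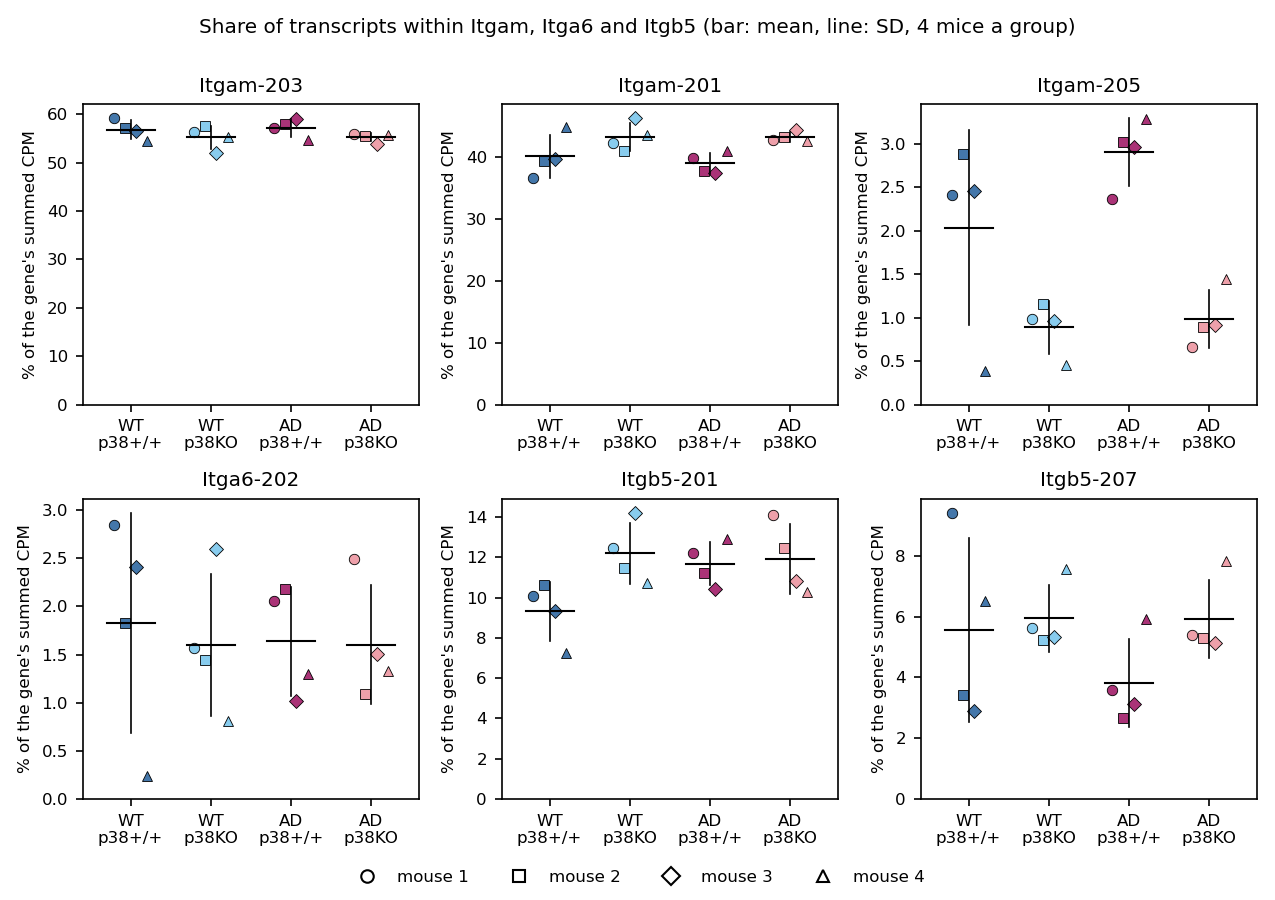
Share of the gene's summed CPM taken by transcripts of Itgam, Itga6 and Itgb5 in every library, with the mean (bar) and SD (line) of 4 mice a group. Itgam-205 takes 2.36 to 3.28% in AD p38+/+ and 0.663 to 1.45% in AD p38KO, with WT p38+/+ mouse 4 down at 0.380%.

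Itga6 was mainly the α6A form, with Itga6-201 at 76.6% ± 3.10 of the gene and the α6B form Itga6-202 at 1.67% ± 0.720 (SD, n = 16). A noncoding transcript from the 3′ end, Itga6-203, took 18.7% ± 2.76. Itga6-201 followed the same low and high libraries as the gene, at 103, 357, 314 and 275 CPM in WT p38+/+, with 143, 149, 305 and 122 CPM in AD p38+/+. Itga6-207, a low-level form, was at 0.442 to 2.16 CPM in AD p38+/+ and was 0 in all 4 AD p38KO libraries, while in WT p38KO it was at 4.19, 6.20, 0 and 1.54 CPM. It was not called (adjusted p = 0.574 for AD p38KO against AD p38+/+).

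Itgb5 was 83.4% ± 2.46 Itgb5-202, the form with the 29 added bases, and 11.3% ± 1.78 Itgb5-201 (SD, n = 16). The share of Itgb5-201 was 7.25 to 10.6% in WT p38+/+ and 10.7 to 14.2% in WT p38KO, which did not overlap, and 10.5 to 12.9% in AD p38+/+ and 10.3 to 14.1% in AD p38KO, which did. Itgb5-207 starts at the internal exon chr16:33891941-33892049, after 5 exons of Itgb5-202. Its level was 42.6, 66.2, 72.2 and 146 CPM in WT p38+/+, with 86.7, 149.8, 144 and 192 CPM in WT p38KO mice. It was 94.3, 78.0, 58.0 and 40.5 CPM in AD p38+/+ and 169, 153, 138 and 81.9 CPM in AD p38KO. The groups overlapped, as mice 1 and 3 of WT p38KO and mouse 4 of AD p38KO lay within the range of their controls. Mouse 4 of WT p38+/+ lay among the p38KO values. As a share of Itgb5, it was 5.57% ± 3.03 in WT p38+/+ and 5.95% ± 1.10 in WT p38KO, and 3.82% ± 1.44 in AD p38+/+ and 5.92% ± 1.29 in AD p38KO (SD, n = 4). The p38 KO main effect was 0.95 on the log2 scale (SE 0.24, interval 0.45 to 1.46, adjusted p = 0.205).

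Itgav was 80.3% ± 3.09 Itgav-201 (SD, n = 16; range 73.2 to 84.6%), and the in-frame form Itgav-202, which lacks exons chr2:83761868-83761929 and chr2:83763652-83763697 (62 and 46 bases), was the next at 12.1% ± 2.78. Itgav-202 was at 65.9, 57.4, 66.7 and 42.1 CPM in WT p38+/+ and at 96.6, 69.8, 69.7 and 85.3 CPM in WT p38KO. In AD p38+/+ it was at 31.4, 58.3, 49.2 and 64.8 CPM, and in AD p38KO at 65.3, 54.7, 70.9 and 55.7 CPM. The WT groups did not overlap and the AD groups did, and in WT mice 2 of 28 transcripts of members and 3.19% of all transcripts were without overlap. As a share of Itgav the WT groups overlapped, at 8.82 to 11.6% in p38+/+ and 11.2 to 18.5% in p38KO mice. The p38 KO main effect of 0.39 on the log2 scale (interval 0.09 to 0.70) was not called at an adjusted p of 0.509.

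Of the 18 other integrin chains, 13 were in the table and 6 passed the filter. Itgax (CD11c), which pairs with Itgb2 and marks microglia around amyloid deposits, was at 7.87, 17.2, 12.3 and 5.78 CPM in WT p38+/+ and at 147, 74.7, 64.7 and 29.1 CPM in AD p38+/+. It was at 14.5, 35.5, 14.2 and 13.3 CPM in WT p38KO and at 78.4, 124, 57.2 and 44.9 CPM in AD p38KO. Within each p38 genotype all AD mice were above all WT mice, though AD p38+/+ mouse 4 was below WT p38KO mouse 2. Itgax rose by 2.34 on the log2 scale for the APP/PS1 main effect (SE 0.31, adjusted p = 0.000451) and by 2.70 in AD p38+/+ against WT p38+/+ (SE 0.44, adjusted p = 0.00785), and missed the threshold in p38KO mice at 1.97 (SE 0.44, adjusted p = 0.0754). No other chain of the list was called. Itgb3, the β3 partner of Itgav, was at 154 to 219 CPM over all libraries, Itga9 at 31.7 to 168 CPM, Itgae at 1.22 to 7.87 CPM, Itgb8 at 0 to 11.2 CPM and Itgad at 0 to 4.21 CPM. Itgb7, the partner of Itga4 in gut-homing lymphocytes, did not pass the filter, at 0 to 2.34 CPM. The lowest Itga9 values, 31.7, 38.6 and 54.4 CPM, belonged to mouse 1 of WT p38+/+ and to mouse 4 of both AD groups, which were also the 3 libraries lowest in Itgb5.

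The proteins that switch integrins to their active state from inside the cell were tested for 13 of 18 listed genes, and 0 were called. The count at an unadjusted p under 0.05 ran from 0 to 3 over the 7 comparisons and was highest in WT p38KO against WT p38+/+ (23.1% of the list, against the 3.53% of genes given above). Those 3, named after their values were seen, were the small GTPases Rap1a (log2 fold change 0.30, SE 0.13) and Rap1b (0.28, SE 0.12) and their effector RIAM (Apbb1ip, 0.19, SE 0.09). The highest of the list were Rap1b at 586 CPM ± 77.8, the cytoskeletal adaptor talin (Tln1) at 514 ± 66.7 and kindlin-3 (Fermt3) at 437 ± 41.8 CPM (SD, n = 16).

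Among the adhesion complex and its kinases 35 of 39 genes were tested, with 0 called and 0 to 4 at the unadjusted limit. The count of 4 was reached in AD p38+/+ against WT p38+/+ (11.4% of the list, against 7.11% of genes) and for the APP/PS1 main effect. In the former these were the kinase Fgr (log2 fold change 1.11), Parvb (-0.75), Arhgef6 (-0.32) and Elmo1 (-0.20), also named after their values were seen. The list was led by Lyn at 1018, Rac1 at 977 and Elmo1 at 664 CPM.

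Of the ligands and bridging proteins 18 of 33 were tested, with 0 called and 1 to 4 at the unadjusted limit. The count of 4 was reached in AD p38KO against AD p38+/+ (22.2% of the list, against 6.99% of genes) and for the p38 KO main effect (against 7.28% for the main effects and interaction together). In AD mice these were thrombospondin-2 (Thbs2, log2 fold change -2.82, SE 0.54, adjusted p = 0.0999 by limma), Icam2 (-1.22), Thbs1 (-0.51) and complement C3 (1.36), named likewise after their values were seen. Their levels in CPM are not given here. AD p38KO libraries also had the fewest genes above 0, and the part of this in these fold changes was not tested. The lists were chosen with earlier results known, so these shares are a description. F11r (JAM-A) at 1162 CPM, Icam1 at 273 CPM and Cd47 at 249 CPM led the list, and of these Icam1 and F11r are ligands of LFA-1, the receptor whose α chain Itgal was close to 0 here.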

How the data were processed

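RNA was sequenced from sorted microglia of 16 mice (4 groups of 4, with 5 female and 11 male mice). The authors aligned reads with STAR to mm10, quantified Ensembl transcripts with Partek Flow 10.0.22.0828 and deposited gene and transcript values in CPM with 0.0001 added. Reads could not be recovered, since 74.0 to 80.4% of low values were whole reads within 0.05, so no count model was used. The constant was subtracted, and 13912 genes and 34322 transcripts with 1 CPM in at least 4 libraries were fitted in 1 model as log2(CPM + 0.5) with limma 3.58.1 (R 4.3.3), trended and two-sided. Folds on this scale understate changes of low genes. Single values were compared by exact permutation tests. The 95% intervals are limma's and cover 4 mice a group. The script was tested on simulated data. Positions and sequences are from GENCODE M21. Members and lists were chosen with earlier results of these data known. Named are the members, their highest or called transcripts, other integrin chains of at least 1 CPM in a group, called genes and the 3 highest of each list, and the 2 nearest profiles; transcripts outside this rule and the profiles of Itga6 and Itgb5 were chosen after their values were seen. Settings varied were the pseudocount, filter, scaling, weights, covariates, block and each library. Python 3.11.15 served for the summaries and plots, with pandas 2.3.3 and matplotlib 3.10.9.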

Additional observations from a re-analysis of the deposited data

Results flagged for a closer look

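Single mice stood apart from the other 3 of their group in 5 of 36 groups (9 chains in 4 groups), where the gap to the nearest mouse, as a share of the group's range on the log2 scale, exceeded Dixon's 95% critical value for 4 samples. Chance alone flags about 1 in 20 such groups. Itgav was high in AD p38KO mouse 3, at a share of 0.935. Itga6 was low in WT p38KO mouse 3, at 0.915. Itgb5 was low in AD p38KO mouse 4, at 0.863, and in WT p38+/+ mouse 1, at 0.855. Itgb2 was high in AD p38KO mouse 1, at 0.831. Of these 5 mice, AD p38KO mice 1 and 4 were also farthest out on the principal components of all genes.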

How the results depend on the processing

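Recomputed under up to 30 alternatives, 1846 member values gave 0 calls, with a smallest adjusted p of 0.0729 (Itgav, APP/PS1 main effect, without WT p38+/+ replicate 4). The sign changed in 5.63% of them, none being a value beyond 1 SE. Leaving out libraries in turn gave 0 to 2 called transcripts of members, both calls being Itgam-205 without WT p38+/+ replicate 4. The replicate block gave 0 called members and 0 called transcripts. Deviations of mice with the same number in different groups correlated from -0.131 to 0.184 (2 of 24 pairs over 0.1). Those of mice with different numbers correlated from -0.148 to 0.212. No pairing by number was seen in these values, and whether same-numbered mice shared a litter or batch was not tested. Leaving out AD p38KO mice 1 and 4, an alternative chosen after seeing the data, changed no call. Depth limits Itgal and Itga4, with 5 and 4 libraries under 3 reads. The cause of the difference made by WT p38+/+ replicate 4 was not tested.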
